A study of Homo sapiens with 16 samples.

Results

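Microexons, taken here as internal exons of 3 to 30 nt, were collected from full-length transcript models of 2 established human cell lines. An exon was counted as internal when it was neither the first nor the last of its model, and exons with the same chromosome, strand, start and end were counted once. By this rule 1014 of 140288 unique internal exons were microexons. HEK-293T derives from human embryonic kidney and expresses the large T antigen of SV40, and HT-1080 derives from a fibrosarcoma. Both lines received 20 nM of siRNA, directed at HNRNPH1 in the siHNRNPH1 groups and a negative control in the siNegative groups, and RNA was taken 48 h after transfection. Full-length cDNA sequencing (IsoSeq) gave 4 pools, 1 for each line and siRNA, which the labels describe as pooled replicates. Short-read RNA-seq of the same 4 groups gave 12 libraries, 3 biological replicates per group. The labels name no clone, genotype change or other agent.

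Microexons are too short to be defined across the exon in the usual way, and their splicing depends on nearby intronic signals and on activators such as SRRM4, SRRM3 and the RBFOX proteins, while PTBP1 represses many of them. They are best known from neurons, where most of the regulated ones keep the reading frame and change a few residues at the surface of a protein. HNRNPH1 is a nuclear RNA-binding protein that recognises runs of G in pre-mRNA and can raise or lower the inclusion of an exon, depending on where it binds.

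The targeted gene was lower in every siHNRNPH1 library. In HEK-293T, HNRNPH1 stood at 1107, 1105 and 1121 CPM (counts per M counts of the library) in the siNegative libraries and at 234, 376 and 394 CPM in the siHNRNPH1 libraries. This was a log2 fold change of -1.76 (SE 0.20, n = 3 per group, edgeR adjusted p = 0.00939). In HT-1080 the levels were 635, 606 and 617 CPM against 232, 231 and 228 CPM, a log2 fold change of -1.49 (SE 0.04, n = 3 per group, edgeR adjusted p = 6.76e-09). The groups did not overlap in either line. Libraries of HEK-293T held 107.8 to 121.0 M (mega) expected counts each, and those of HT-1080 were shallower, with 27.3 to 32.7 M. Replicate 1 of HEK-293T siHNRNPH1 stood apart from the other 2. The main fold changes and counts of called genes in this line are therefore also given without it. Without that library the HNRNPH1 change was -1.58 (edgeR adjusted p = 6.94e-21). With it, the call was lost on leaving out any 1 siNegative library or siHNRNPH1 replicate 2 (edgeR adjusted p = 0.0514 to 0.0760). The labels describe the HEK-293T siHNRNPH1 pool as pooled replicates without naming them. Any share of that replicate in the models cannot be taken out. Marker genes matched the line labels. The mesenchymal genes CAV1, THBS1 and MMP14 were at 157 CPM or more in every HT-1080 library and at 6.89 CPM or less in every HEK-293T library. LIN28B, expressed in embryonic kidney cells, was higher in every HEK-293T library than in any HT-1080 library, while PAX2 was low in both lines, at most 2.20 CPM.

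The pools held 64705 and 94847 transcript models in HEK-293T (siNegative, siHNRNPH1) and 72186 and 68078 in HT-1080. A microexon was present in 3.73%, 3.61%, 3.83% and 3.99% of these models. The 4 pools held 559, 666, 606 and 611 of the 1014 microexons. The HEK-293T siHNRNPH1 pool had the most models and the most microexons, but per 1000 models it held fewer of them (7.02) than the other pools (8.64, 8.40 and 8.98). Unique internal exons of all lengths numbered 97801, 107419, 102280 and 101997 in the same order of pools. They too were fewest per model in the HEK-293T siHNRNPH1 pool, so this was not particular to microexons. Microexons were thus a small and similar fraction of the models in each pool. All 4 pools shared 326 of them, while 327 were found in 1 pool. Of all members, 289 were carried by a single model, 395 by 2 to 9 models and 330 by 10 or more, with a median of 4.

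Most microexons lay in protein-coding genes. A gene name was found for 1011 of them by overlap, in 826 genes, with 995 in protein-coding genes and 7 in genes of long noncoding RNAs. Of the host genes, 721 held 1 microexon and 105 held several. Another 40 microexons overlapped several genes, and for 157 the gene table gave no strand, so those host names are less certain. For each microexon an inclusion share was computed, the models that carried it with exactly these ends as a share of the models that spanned it. A model spans an exon if it lies on the same strand, starts before it and ends after it. Such a model may skip the exon or may hold a longer or shorter exon in its place. For 429 members, at least 1 spanning model had an overlapping exon of other ends, and for 241 more than 50% of the spanning models did.

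Microexons became rarer with decreasing length, and few were shorter than 15 nt. Members ran from 5 to 30 nt with a median of 27 nt. Of them 524 (51.7%) were 27 to 30 nt long, 388 were 21 to 26 nt, 90 were 15 to 20 nt and 12 were under 15 nt. The commonest length was 27 nt, with 155 members. The 12 shortest included exons of FCRLB, HSPA14, ARF3, ERC1, TMX1, SIN3A, POLD1, COL5A2, IL17RA, CDC23 and DNM1, and none of them was carried by more than 7 models. The best supported of these was a 12-nt exon of DNM1, the dynamin gene whose product cuts vesicles from the membrane, which was in 3 of 11 and 4 of 11 spanning models of the HT-1080 siNegative and siHNRNPH1 pools.

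**Figure D1:**
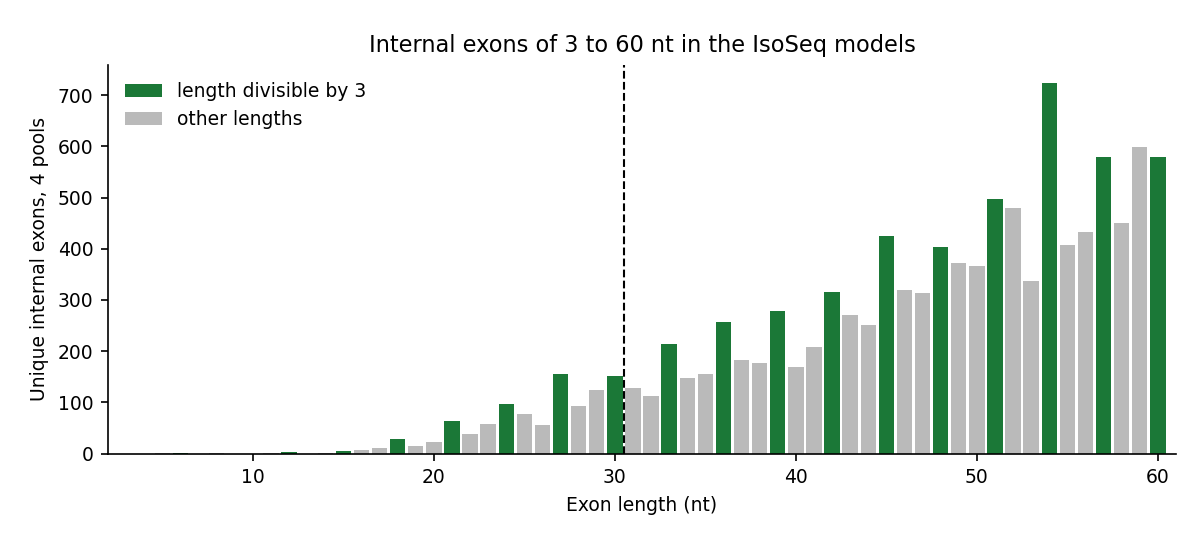
Number of unique internal exons (vertical axis) at each length from 3 to 60 nt (horizontal axis) in the 4 IsoSeq pools together. Green bars are lengths divisible by 3, grey bars other lengths, and the dashed line marks the upper limit of 30 nt. Counts rise with length, and 27 nt is the commonest length among the microexons, with 155 members.

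Lengths that keep the reading frame were commoner among microexons than among longer exons. Of the 1014 microexons, 507 (50%, 95% interval 46.9 to 53.1) had a length divisible by 3, against 42.1% of the internal exons of 31 to 60 nt and 38.2% of those of 61 to 300 nt. The share depended on how the exon was used. Among the 564 microexons spanned by at least 20 models over the 4 pools, 64.8% (55.8 to 73.1) of the 125 included in 10 to 90% of models kept the frame. For the 149 included in 90% or more it was 38.9% (31.1 to 47.2), and for the 290 included in up to 10% it was 51.7%. The alternative exons of 31 to 60 nt kept the frame in 47.2% and those of 61 to 300 nt in 39.1%, and the exons of these lengths included in 90% or more of models in 38.7% and 38.4%. Microexons included in nearly all models were therefore close to longer exons in this respect, and alternative microexons were not. Intervals here and below are exact Clopper-Pearson 95% intervals that cover counting error only. They treat exons, or the models that span 1 exon, as independent draws. Exons of 1 gene are not independent, and each model counts once whatever its abundance.

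**Figure D2:**
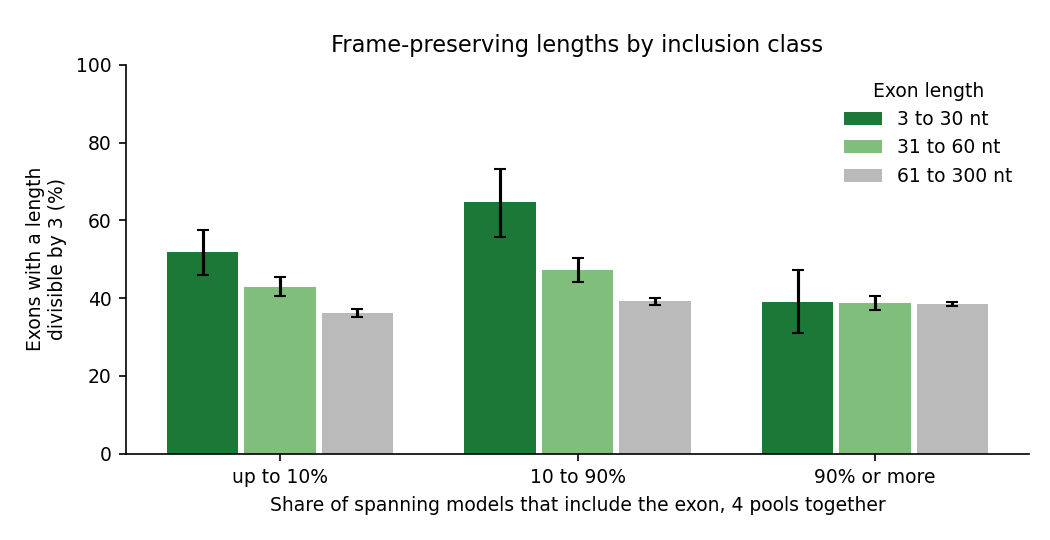
Share of exons with a length divisible by 3 (vertical axis, percent) by inclusion class over the 4 pools together (horizontal axis), for exons of 3 to 30 nt, 31 to 60 nt and 61 to 300 nt spanned by at least 20 models. Error bars are exact 95% intervals. Microexons included in 10 to 90% of models stand highest at 64.8%, while at 90% or more the 3 length classes lie within 1 point of each other.

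Most microexons were included in few of the models that could carry them. With at least 20 spanning models, 26.4% of the microexons were included in 90% or more, against 51.4% of exons of 31 to 60 nt and 64.3% of those of 61 to 300 nt. At the other end, 51.4% of the microexons were included in up to 10% of models, against 28.2% and 17.4%. The median flanking introns of microexons were 1524 nt upstream and 1267 nt downstream, near those of exons of 61 to 300 nt (1609 and 1512 nt). Summed over members, the inclusion share was 31.9% and 32.3% in the HEK-293T pools (siNegative, siHNRNPH1) and 39.8% and 43.4% in the HT-1080 pools. With models that hold an overlapping exon left out, these became 56.8%, 58.0%, 62.7% and 64.6%. The collagen gene COL13A1 alone gave 351 and 802 of the HT-1080 inclusions, and without it the HT-1080 shares were 37.6% and 38.7%.

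The microexons with the most models were included almost everywhere. A pair of 29-nt exons of GTF2I, which encodes the transcription factor TFII-I, were in 278 and 252 models. The first (chr7:74755509-74755537, plus strand, in the files' coordinates, build GRCh38.p13 per the submitters' processing notes) was in 89 of 90, 93 of 98, 49 of 52 and 47 of 49 models. Pools are listed throughout as HEK-293T siNegative, HEK-293T siHNRNPH1, HT-1080 siNegative and HT-1080 siHNRNPH1. The second (chr7:74700606-74700634, plus strand) was in 80 of 80, 85 of 85, 45 of 45 and 42 of 43. GTF2I has near-identical copies nearby, so the placement of its models is less certain. A 22-nt exon of ANLN, an actin-binding protein of the cleavage furrow (chr7:36426015-36426036, plus strand), was in all spanning models of every pool, 54, 69, 54 and 19 of them. So was a 27-nt exon of SUPT20H, a subunit of the SAGA coactivator (chr13:37026790-37026816, minus strand), with 37, 62, 47 and 47 models. A 26-nt exon of the cytoskeletal GTPase SEPTIN2 (chr2:241324216-241324241, plus strand) was a partial case, at 52 of 58, 60 of 69, 33 of 38 and 33 of 36. Full inclusion was not limited to the longer microexons. A 17-nt exon of TLE4, a Groucho-type corepressor (chr9:79654059-79654075, plus strand), was in 21 of 21, 21 of 21, 10 of 10 and 14 of 14 models. In VAV2, a guanine nucleotide exchange factor, a 17-nt exon (chr9:133780694-133780710, minus strand) and a 22-nt exon were both in every spanning model, 3, 5, 8 and 6, always together.

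Some genes held microexons in series. COL13A1, a transmembrane collagen, had 12 members, 10 of them 27 nt long, all in HT-1080 and without a single spanning model in HEK-293T. Of these, 9 were carried by more than 100 models each, at 97.2 to 100% inclusion in the HT-1080 siNegative pool and 91.7 to 98.8% in the siHNRNPH1 pool. A pair of 27-nt COL13A1 exons were alternative. The first (chr10:69872184-69872210, plus strand) was in 20 of 36 and 51 of 85 models (55.6% and 60%), and the second (chr10:69878039-69878065, plus strand) in 8 of 36 and 23 of 84 (22.2% and 27.4%). For both exons the pools differed by less than the counting error. Collagen exons in the triple helix code for repeats of Gly-X-Y and are commonly multiples of 9 nt. Over all collagen genes, a grouping chosen after the values were seen, 31 microexons lay in 10 genes and 22 (71.0%) had a length divisible by 9, against 162 of the other 983 (16.5%). DMBT1, a secreted scavenger-receptor protein, had 9 members, each divisible by 3, in 8 and 53 model inclusions of the HT-1080 pools. ANKRD36C had the most members, 32 exons of 29 nt each, with 96 and 86 model inclusions in the HEK-293T pools and 0 in HT-1080. ANKRD36B and ANKRD36 added 8 and 3 more of 29 nt. These 3 genes are near copies of each other, and their models rest on few transcripts, with at most 5 models spanning any ANKRD36C member in a pool.

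The comparison of siHNRNPH1 with siNegative asks whether microexon inclusion differed after depletion of this splicing factor. With 1 pool per group there is no replicate error and no test, so an exon was called shifted by size alone, when at least 10 models spanned it in both pools and the shares differed by at least 20 percentage points. In HEK-293T, 4 of 280 microexons (1.43%, interval 0.391 to 3.62) passed, 2 higher and 2 lower, and of all internal exons 1.84% passed (0.832% higher, 1.01% lower). In HT-1080, 5 of 243 microexons (2.06%) passed, 2 higher and 3 lower, and of all internal exons 1.69% passed (0.892% higher, 0.794% lower). These shares were near the background in both lines. The same held among exons with room to move in both directions. Of those at 10 to 90% inclusion in the siNegative pool, 3 of 47 microexons (6.38%) passed in HEK-293T against 7.29% of exons over 30 nt, and 3 of 48 (6.25%) in HT-1080 against 7.91%. The median difference was 0 in both lines, as for exons over 30 nt. The median absolute difference was larger than for those exons, 3.13 against 2.35 points in HEK-293T and 1.96 against 0 in HT-1080. Fewer microexons had equal shares in both pools, 20.0% against 36.5% in HEK-293T and 41.6% against 50.9% in HT-1080. At 10 to 90% inclusion, 29 microexons were higher and 17 lower in HEK-293T, and 21 and 25 in HT-1080. Their medians were 4.83 and -1.47 points, against 0.31 and 1.43 for exons over 30 nt. No microexon was called in both lines. Just inside the limit were MECOM in HEK-293T, with a difference of 25.6 points, and PLAU in HT-1080, with -20.2. Just outside were the 21-nt exon of SENP6 in HEK-293T (19.9) and a 30-nt exon of MXI1 in HT-1080 (17.6).

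**Figure D3:**
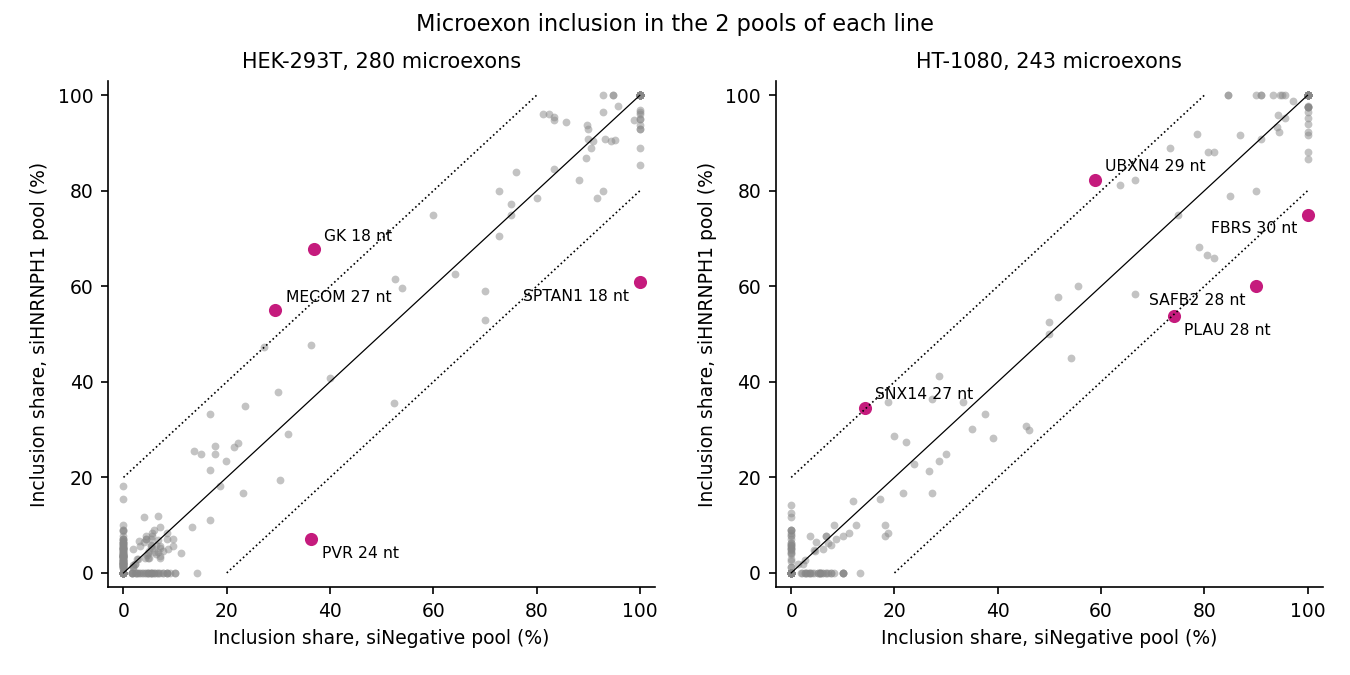
Inclusion share of each microexon in the siHNRNPH1 pool (vertical axis, percent) against the siNegative pool (horizontal axis, percent), for the 280 microexons of HEK-293T (left) and 243 of HT-1080 (right) spanned by at least 10 models in both pools. The solid line marks equal shares and the dotted lines a difference of 20 points, beyond which 4 and 5 named exons lie.

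SPTAN1 is the gene of alpha-II spectrin, which cross-links actin beneath the plasma membrane. Its 18-nt exon (chr9:128627925-128627942, plus strand) showed the largest difference between siRNAs in HEK-293T, with lower inclusion in siHNRNPH1. In HEK-293T it was in 21 of 21 siNegative models (100%, 83.9 to 100) and 14 of 23 siHNRNPH1 models (60.9%, 38.5 to 80.3). In HT-1080 it was in 18 of 22 (81.8%, 59.7 to 94.8) and 33 of 50 (66.0%, 51.2 to 78.8). The share was lower in siHNRNPH1 in both lines, by 39.1 and 15.8 points. The HEK-293T intervals did not overlap, which was true of no other microexon in that line, and the HT-1080 intervals did. The exon was picked as the largest of 280 differences in HEK-293T, so its intervals are not a test. No spanning model had another exon in its place, so the remaining models skipped it. A 24-nt exon further upstream in SPTAN1 (chr9:128598963-128598986, plus strand) showed no like change, at 15 of 17, 14 of 17, 11 of 14 and 23 of 25 models. In every model that spanned both, the 24-nt exon was included, and the 18-nt exon was present in 13 of 13, 7 of 12, 9 of 11 and 16 of 22 of them. The remaining SPTAN1 microexon, of 15 nt, was in 1 of 19 models of the HEK-293T siHNRNPH1 pool and in 0 of 18, 17 and 38 models of the others. At the gene level SPTAN1 was at 309, 257 and 318 CPM in HT-1080 siNegative and 477, 464 and 474 CPM in siHNRNPH1, a log2 fold change of 0.61 (SE 0.07, edgeR adjusted p = 4.21e-05). In HEK-293T the log2 fold change was 0.13 (edgeR adjusted p = 0.492), or 0.11 without replicate 1 of siHNRNPH1 (edgeR adjusted p = 0.00132).

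SENP6, a protease that removes SUMO chains, carried a pair of microexons that share their downstream end and differ by 3 nt at the upstream end (chr6:75640684-75640704, 21 nt, and chr6:75640687-75640704, 18 nt, plus strand). The 21-nt form was in 9 of 33 and 17 of 36 models in HEK-293T (27.3% and 47.2%) and 4 of 14 and 7 of 17 in HT-1080 (28.6% and 41.2%). The 18-nt form went the other way, at 10 of 33, 7 of 36, 4 of 14 and 4 of 17. Either form was present in 57.6%, 66.7%, 57.1% and 64.7% of models. Among models with either, the 21-nt form made up 47.4% and 70.8% in HEK-293T and 50% and 63.6% in HT-1080. Inclusion of either form and the 21-nt part of it were thus both higher in siHNRNPH1, in both lines. The intervals of each form, and of either form together, overlapped. With models of the 21-nt form left out, the 18-nt form of SENP6 differed by -4.82 points in HEK-293T and 0 in HT-1080. SENP6 was 1 of 12 overlapping pairs of microexons, all of which shared a splice site, and 4 of which differed by 3 nt.

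Other microexons differed in the same direction in both lines without being called. Of 156 microexons with at least 10 spanning models in all 4 pools, 10 were higher and 15 lower in siHNRNPH1 in both lines, 27 differed in opposite directions, 93 were equal in 1 line and 11 in both. Agreement in direction was therefore no commoner than disagreement. A 15-nt exon of ABI1, a subunit of the WAVE actin-nucleation complex (chr10:26771075-26771089, minus strand), was in 3 of 18 and 9 of 27 models in HEK-293T (16.7% and 33.3%) and in 0 of 21 and 2 of 25 in HT-1080 (0 and 8%). HERC4, a ubiquitin ligase, had a 24-nt exon (chr10:67959113-67959136, minus strand) in 0 of 10 and 0 of 11 siNegative models and in 2 of 13 and 2 of 14 siHNRNPH1 models. For these exons the intervals overlapped widely. The 26-nt exon of HNRNPC, another nuclear RNA-binding protein (chr14:21263311-21263336, minus strand), was in 34 of 63, 40 of 67, 27 of 54 and 20 of 38 models, differences of 5.73 and 2.63 points. Lower in both lines was a 30-nt exon of ACLY, the enzyme that makes cytosolic acetyl-CoA from citrate (chr17:41896620-41896649, minus strand). It was in 22 of 42 and 16 of 45 models in HEK-293T (52.4% and 35.6%) and in 19 of 35 and 9 of 20 in HT-1080 (54.3% and 45.0%). The HEK-293T difference of -16.8 points for ACLY became -7.94 over models that hold a flanking donor and acceptor. ACLY was also lower as a gene, by a log2 fold change of -1.52 in HEK-293T (edgeR adjusted p = 0.0391) and -0.97 in HT-1080 (edgeR adjusted p = 1.52e-07). Without replicate 1 of siHNRNPH1, the HEK-293T change of ACLY was -1.23 (edgeR adjusted p = 8.27e-20), and the call was lost without any of the other 5 libraries and with a replicate block.

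The other called microexons of HEK-293T were in MECOM, GK and PVR. A 27-nt exon of MECOM, which encodes the zinc-finger factor EVI1 (chr3:169107926-169107952, minus strand), was in 5 of 17 siNegative models (29.4%, 10.3 to 56.0) and 11 of 20 siHNRNPH1 models (55.0%, 31.5 to 76.9). HT-1080 had no model spanning it, with MECOM at 10.5 to 12.8 CPM in siNegative and 4.69 to 5.48 CPM in siHNRNPH1. An 18-nt exon of the glycerol kinase gene GK (chrX:30697732-30697749, plus strand) was in 7 of 19 (36.8%, 16.3 to 61.6) and 19 of 28 models (67.9%, 47.6 to 84.1), and in HT-1080 in 0 of 4 and 3 of 9. It was higher in siHNRNPH1 in both lines, with under 10 spanning models in HT-1080. PVR, the adhesion receptor CD155, had a 24-nt exon (chr19:44658742-44658765, plus strand) in 4 of 11 and 1 of 14 HEK-293T models (36.4% and 7.14%) and in 5 of 21 and 5 of 22 HT-1080 models. Overlapping exons filled this position in 5, 10, 12 and 13 PVR models, so 6 and 4 HEK-293T models remained without them, under the minimum of 10.

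Among the 5 called in HT-1080, several depended on how overlapping exons were treated. A 27-nt exon of SNX14, a sorting nexin (chr6:85538838-85538864, minus strand), was in 4 of 28 (14.3%, 4.03 to 32.7) and 9 of 26 models (34.6%, 17.2 to 55.7), against 7 of 22 and 7 of 24 in HEK-293T. A 30-nt exon of FBRS, fibrosin (chr16:30666512-30666541, plus strand), was in 10 of 10 (100%, 69.2 to 100) and 9 of 12 models (75.0%, 42.8 to 94.5). Neither SNX14 nor FBRS had an overlapping exon in any spanning model, so the remaining models skipped the exon. The 28-nt exon of PLAU, the urokinase plasminogen activator (chr10:73912041-73912068, plus strand, a position within 2 named genes), was in 20 of 27 (74.1%, 53.7 to 88.9) and 14 of 26 models (53.8%, 33.4 to 73.4). With the models that had an overlapping exon left out it was in 20 of 21 and 14 of 17, a difference of -12.9 points, which is under the limit. PLAU itself was lower, at 2832, 2856 and 2842 CPM against 1756, 1718 and 1747 CPM, a log2 fold change of -0.78 (edgeR adjusted p = 3.4e-07). A 28-nt exon of SAFB2, a nuclear scaffold protein (chr19:5612540-5612567, minus strand), was in 9 of 10 and 6 of 10 models, and a 29-nt exon of UBXN4, an adaptor of the p97 ATPase at the endoplasmic reticulum (chr2:135753539-135753567, plus strand), in 10 of 17 and 14 of 17. Once overlapping exons were left out, both were in every remaining model of every pool. The SAFB2 and UBXN4 models without the exon thus held an overlapping exon of other ends and did not skip the position. In HEK-293T, these exons were at 6 of 8 and 12 of 16 (SAFB2) and at 9 of 14 and 10 of 16 (UBXN4).

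**Figure D4:**
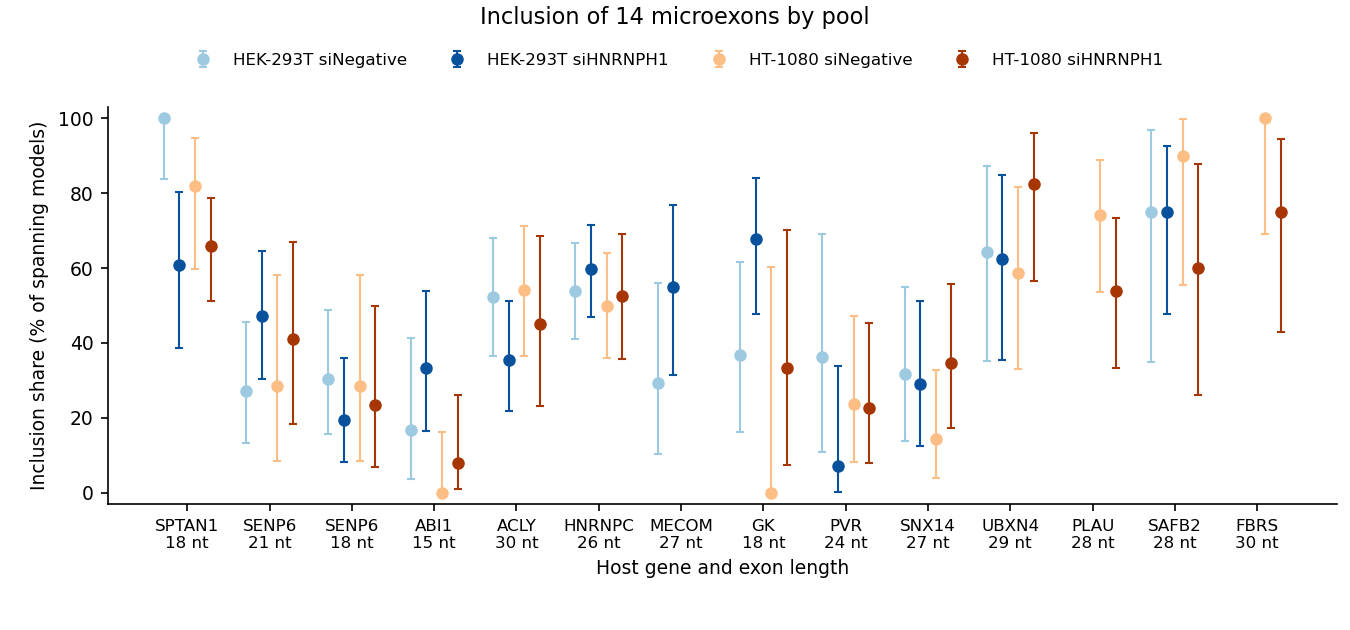
Inclusion share (vertical axis, percent of spanning models) of 14 microexons, named by host gene and length (horizontal axis), in the 4 pools. Points are shares and bars exact 95% intervals for counting error, and a missing point means that no model of that pool spanned the exon. The SPTAN1 18-nt exon is the 1 whose HEK-293T intervals are separate, and the ABI1, ACLY and SENP6 exons differ in the same direction in both lines with overlapping intervals.

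Of 36 genes known to hold regulated microexons, most of them from neurons, 10 held a member here, with 14 exons. SPTAN1, ABI1 and VAV2 are given above. EIF4G1, the translation initiation scaffold whose transcripts the series addresses, had a 21-nt exon (chr3:184332066-184332086, plus strand) in 1 of 54, 1 of 80, 0 of 79 and 1 of 75 models. In 51, 75, 77 and 73 of these EIF4G1 models an exon of other ends overlapped the position. The 21-nt form was thus rare, and no difference between pools was detectable at this depth. EIF4G1 as a gene had a log2 fold change of -0.43 in HEK-293T (edgeR adjusted p = 0.141), -0.31 there without replicate 1 of siHNRNPH1 (edgeR adjusted p = 3.31e-09), and -0.29 in HT-1080 (edgeR adjusted p = 0.00047). DCTN1, the dynactin subunit that binds microtubules, included a 21-nt exon in 1 of 17, 1 of 23, 1 of 13 and 0 of 11 models. It was present but rare in both lines. CLASP2, a microtubule plus-end protein, included an 18-nt exon in 1 of 19 and 1 of 18 HEK-293T models, and a 24-nt exon in 1 of 19 and 0 of 18. Its paralog CLASP1 included a 24-nt exon in 1 of 2 and 1 of 3. The formin DAAM1 had a 25-nt exon in 1 model. An exon of other ends overlapped that position in 8 of 8, 5 of 6, 5 of 5 and 6 of 6 spanning models. More often included was a 27-nt exon of ROBO1, the Slit receptor of axon guidance (chr3:78647629-78647655, minus strand), in 5 of 8 and 10 of 14 HEK-293T models, with no spanning model in HT-1080. UNC13B, a vesicle priming factor, included a 30-nt exon in 2 of 2 and 4 of 4 HEK-293T models. In HT-1080 the UNC13B exon was in 1 of 1 siHNRNPH1 models, with no spanning model in siNegative.

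Of the 1014 microexons, 442 (43.6%) were found in both lines, 305 (30.1%) in HEK-293T pools alone and 267 (26.3%) in HT-1080 pools alone. Over all internal exons these shares were 63.8%, 19.3% and 16.9%. Exons carried by a single model, 289 of the members, are in 1 line by construction. Among the 330 microexons in 10 or more models, 281 (85.2%) were in both lines, 8 (2.42%) in HEK-293T alone and 41 (12.4%) in HT-1080 alone, against 94.4%, 1.99% and 3.61% of all internal exons with as many models. All 12 COL13A1 members except a 23-nt exon carried by 1 model were among the 41, so the 41 are not independent. For 113 of the HEK-293T members no HT-1080 model spanned the exon, and for 162 of the HT-1080 members no HEK-293T model did. The host gene could still be expressed, as with FBRS, which stood at 76.7 to 129 CPM in HEK-293T without a spanning model there. Another 71 and 24 were absent although at least 10 models of both pools of the other line spanned them. Between the siNegative pools, 7 of 187 microexons (3.74%) differed by 20 points or more, 6 higher and 1 lower in HT-1080, and of all internal exons 2.78% did (1.84% higher, 0.94% lower). With 10 to 90% inclusion in HEK-293T, 4 of 30 microexons (13.3%) differed, against 13.9% of exons over 30 nt. The microexons were again near the background.

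Among the 7 differences between the lines, those of exon skipping were in UGGT1 and FIP1L1. UGGT1, the glucosyltransferase that checks glycoprotein folding, had a 24-nt exon (chr2:128156392-128156415, plus strand) in 18 of 18 and 14 of 14 HEK-293T models and in 10 of 15 and 14 of 17 HT-1080 models. The exon was higher in HEK-293T under both siRNAs, and the siNegative pools differed by -33.3 points (HT-1080 minus HEK-293T). FIP1L1, a subunit of the polyadenylation complex, had a 27-nt exon (chr4:53440582-53440608, plus strand) in 3 of 17 and 10 of 40 HEK-293T models and in 6 of 13 and 3 of 10 HT-1080 models. The siNegative pools differed by 28.5 points, while the siHNRNPH1 pools stood at 25% and 30%. The others lay where exons of other ends overlapped the position. Whether those exons used other splice sites or kept an adjoining intron was not examined. GAS5, a noncoding host of small nucleolar RNAs, accounted for 3 of the 7. One of its exons (30 nt, chr1:173866177-173866206, minus strand) was in 3 of 16 and 4 of 22 HEK-293T models and in 8 of 12 and 7 of 12 HT-1080 models. A second GAS5 exon (30 nt, chr1:173864675-173864704, minus strand) was in 0 of 16 and 0 of 23 against 5 of 15 and 5 of 14. A 30-nt exon of HMGN1, a nucleosome-binding protein (chr21:39348422-39348451, minus strand), was in 10 of 19 and 16 of 26 against 9 of 10 and 8 of 10. HMGN2, the paralog of HMGN1, had a 30-nt exon in 4 of 18 and 5 of 11 siNegative models. In GAS5, HMGN1 and HMGN2 an exon of other ends overlapped these positions in every HEK-293T siNegative model that lacked them.

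Most well-covered microexons stayed near the lowest or the highest inclusion share. A low share is not skipping alone, since an overlapping exon can fill the position, as with EIF4G1. Of the 156 with at least 10 spanning models in each, 20 were at 90% or more in every pool, 9 of them at 100%, and 95 were at 10% or less in every pool. The remaining 41 lay between or crossed these limits. Those already near 0 or 100% could move in 1 direction alone.

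More microexons were found in both siHNRNPH1 pools and neither siNegative pool than the reverse. There were 16 of the first kind (1.58% of the members) and 3 of the second (0.296%). Over all internal exons the shares were 0.955% and 0.559% (1339 and 784 exons), with 0.709% and 0.394% at 31 to 60 nt and 0.845% and 0.500% at 61 to 300 nt, so the excess ran in the same direction in each of these length classes. The HEK-293T siHNRNPH1 pool also had the most models, and its part in these counts was not tested. The 16 included the 24-nt HERC4 and 27-nt MIA2 exons and exons of PHACTR4 (28 nt), HSP90B1 (21 nt), NRDE2 (30 nt), IMMT (15 nt), APMAP (24 nt), NKTR (28 nt), TNIK (24 nt), SEMA6A (21 nt), UFL1 (29 nt) and MAP3K5 (24 nt). The 3 of the reverse kind were in SLC11A2 (25 nt), TAF15 (22 nt) and ZSWIM7 (22 nt). For 4 of the 16, those of SEMA6A, UFL1 and MAP3K5 among them, and for ZSWIM7, no model of the other siRNA spanned the exon, so it could not have been seen there. MIA2, an organiser of secretory cargo export, had its exon in 0 of 10, 1 of 20, 0 of 12 and 2 of 17 models, and such counts of 1 or 2 models carry wide intervals.

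The short-read libraries gave replicated levels of the host genes and of known microexon regulators. Of the 826 host genes, 817 were matched to the gene table. In HEK-293T, 42 of 797 tested hosts changed at an edgeR adjusted p under 0.05 (18 higher, 24 lower, 5.27%, median log2 fold change -0.03), against 10% of all genes (5.12% higher, 4.88% lower, median 0.02). Without replicate 1 of siHNRNPH1, 588 of 797 hosts changed (310 higher, 278 lower, 73.8%), against 61.8% of all genes. Leaving out siNegative replicate 1, 2 or 3 gave 1, 0 and 0 hosts, and leaving out siHNRNPH1 replicate 2 or 3 gave 6 and 13. In HT-1080, 581 of 790 hosts changed (265 higher, 316 lower, 73.5%, median -0.03), against 65.3% of all genes (32.7% higher, 32.6% lower, median 0.01). Host genes thus moved in both directions with a median near that of all genes. In bulk libraries a lower level cannot be told apart from fewer cells that express the gene.

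Of 25 splicing factors known to act on microexons, the neural activator SRRM4 had at most 2 counts in any library and was not tested. Its relative SRRM3 was low. In HT-1080 it fell, with a log2 fold change of -0.87 (SE 0.15, edgeR adjusted p = 0.000694), and in HEK-293T its value was 1.04 (SE 0.35, edgeR adjusted p = 0.126), or 0.55 without replicate 1 (edgeR adjusted p = 4.25e-05). In HT-1080, 14 of 16 tested factors changed, 3 higher (RBFOX3, MBNL2 and CELF1) and 11 lower (median log2 fold change -0.28), beside 65.3% of all genes. In HEK-293T, 3 of 20 changed, all higher (median of the 20 factors -0.11), beside 10% of all genes. Without replicate 1 of siHNRNPH1, 15 of 20 changed, 8 higher and 7 lower, beside 61.8% of all genes, and without any 1 of the other 5 libraries none did.

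The largest change among the factors in HT-1080 was in RBFOX3, a neuronal RBFOX protein, from 0.183, 0.398 and 0.462 CPM to 6.71, 6.06 and 7.37 CPM. The groups did not overlap, and the log2 fold change was 4.16 (SE 0.22, edgeR adjusted p = 1.93e-07). In HEK-293T RBFOX3 was at 0.594, 0.775 and 0.711 CPM against 2.12, 1.51 and 1.36 CPM, a rise of 1.24 (edgeR adjusted p = 0.035). The other 2 factors that passed in HEK-293T were NOVA2, a neuronal KH-domain protein, at 0.97 (edgeR adjusted p = 0.0439), and the epithelial factor ESRP2, at 0.81 (edgeR adjusted p = 0.0221). These 3 HEK-293T calls were lost when any siNegative library or siHNRNPH1 replicate 2 or 3 was left out, and with a replicate block. Without siHNRNPH1 replicate 1 they stood at 0.99, 1.17 and 0.85 for RBFOX3, NOVA2 and ESRP2, with edgeR adjusted p of at most 2.47e-05. The repressor PTBP1 was at a log2 fold change of -0.10 in HEK-293T (edgeR adjusted p = 0.6) and -0.38 in HT-1080 (edgeR adjusted p = 4.17e-05). Its paralogs PTBP2 and PTBP3 fell in HT-1080 by 0.45 and 0.87 on the log2 scale (edgeR adjusted p = 8.45e-05 and 2.76e-06). In HEK-293T they were at -0.37 and -0.82, with edgeR adjusted p = 0.295 and 0.187. Without replicate 1 of siHNRNPH1 the HEK-293T values were -0.08 for PTBP1, -0.19 for PTBP2 and -0.52 for PTBP3 (edgeR adjusted p = 0.039, 0.000347 and 4.5e-12). ELAVL1 and CELF2, which bind U-rich and GU-rich RNA, fell in HT-1080 by 0.48 and 1.06 (edgeR adjusted p = 9.83e-06 and 0.000237). In HEK-293T, ELAVL1 was at -0.04 and CELF2 at 0.46 (edgeR adjusted p = 0.83 and 0.468). Without replicate 1 of siHNRNPH1 they were at -0.06 and 0.78 (edgeR adjusted p = 0.0866 and 3.78e-14). RBFOX2, the RBFOX protein at the highest level here, was at -0.20 in HT-1080 (edgeR adjusted p = 0.0263), a call lost without any library but siNegative replicate 2. MBNL2, a muscleblind protein, was higher at 0.38 (edgeR adjusted p = 0.00116). In HEK-293T RBFOX2 and MBNL2 were at -0.75 and 0.35 (edgeR adjusted p = 0.234 and 0.499), and at -0.44 and 0.63 without replicate 1 of siHNRNPH1 (edgeR adjusted p = 1.2e-11 and 2.57e-09). Whether these levels bear on the inclusion shares was not tested.

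**Figure D5:**
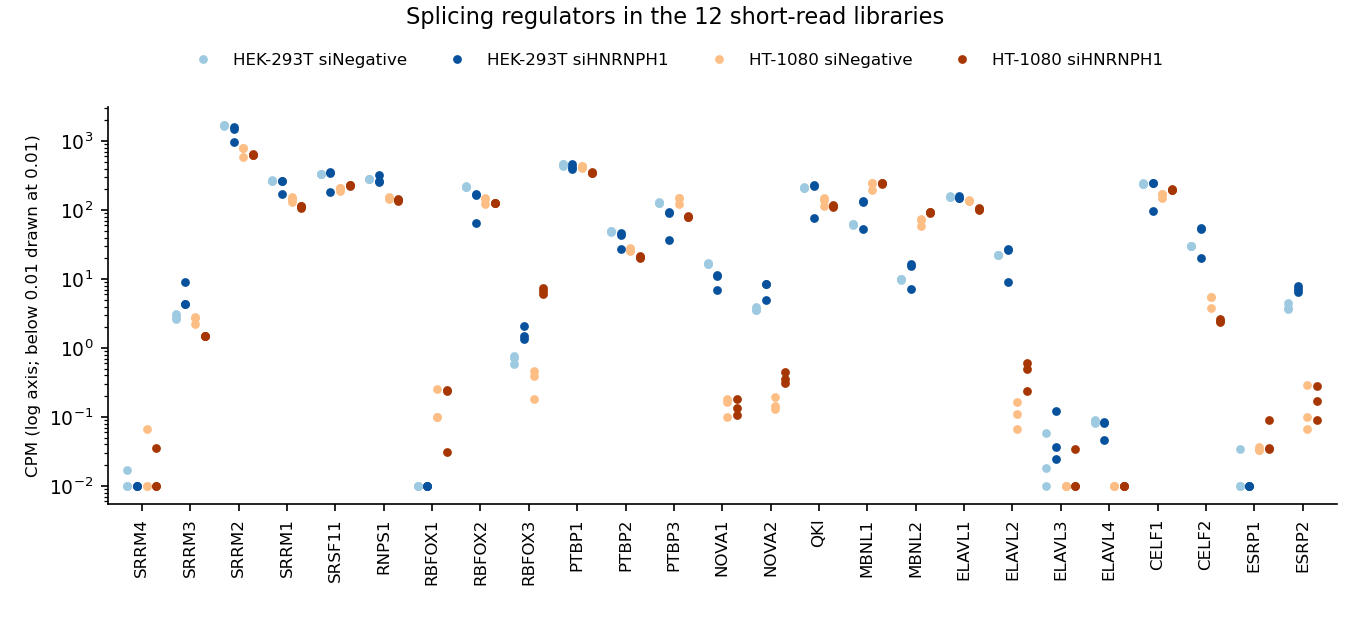
Level (vertical axis, CPM on a log axis, with values below 0.01 drawn at 0.01) of 25 splicing factors (horizontal axis) in the 12 short-read libraries. Each point is 1 library, coloured by cell line and siRNA. SRRM4 lies at or near the lower limit in all groups, RBFOX3 is higher in the siHNRNPH1 libraries of HT-1080, and the HEK-293T siHNRNPH1 point that lies away from the other 2 for several factors is replicate 1.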

How the data were processed

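IsoSeq transcript models were taken from 4 pools, as the exon positions that the authors deposited in build GRCh38.p13, per the submitters' processing notes. The files hold no read counts, so each model counts once. Filters on the models, and the annotation release, aligner and strandedness of the short reads, are not given in the sources used here. For the short reads the authors deposited expected counts of each transcript, estimated with RSEM, per the labels. They were summed per gene and rounded, and 0 value columns were left unmatched. Members and gene lists were chosen with earlier results of these data known.

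Internal exons of 3 to 30 nt were made unique by position. Inclusion was the number of models with the exon over the number spanning it, with exact Clopper-Pearson 95% intervals. An exon was called at a difference of 20 points and 10 spanning models in both pools. Named exons were those of known hosts, the 10 per direction that moved the same way in both lines (of which the text gives some), the 5 largest called per comparison, the 5 with the most models and the 3 shortest with 10 models. Other exons of a named gene, the collagen group and the exons seen with 1 siRNA were chosen after their values were seen. Gene names came from RefSeq spans (GRCh38.p14), used for names only. Cell line markers were also chosen with the data known.

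Genes past edgeR's filter were tested per line on 6 libraries with TMM scaling and edgeR's robust quasi-likelihood test (edgeR 4.0.16, R 4.3.3, two-sided, no covariates). All p-values are Benjamini-Hochberg adjusted over all genes tested, with a threshold of 0.05. A cell line by siRNA interaction was fitted to all 12 libraries. CPM is the count over the library total in M (mega) counts. Alternatives included DESeq2 1.42.0, other scalings, no filter, a replicate block and leaving out each library. Microexon inclusion from short reads was not analysed here, for lack of exon coordinates of the listed transcripts. On simulated data the exon counts of 300 exons matched with 0 errors, and edgeR recovered 71% of 200 genes changed 3-fold in HEK-293T (19643 genes, 5 false calls) and 100% in HT-1080 (15882 genes, 12 false calls). The changed genes were drawn from those above a count limit, so recovery does not describe genes of low count. Counts were drawn independently for each gene, so a shift shared by many genes of 1 library was not simulated. Python 3.11.15, pandas 2.3.3 and scipy 1.17.1 were used.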

Additional observations from a re-analysis of the deposited data

Results flagged for a closer look

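The siRNA effect on 5 splicing factors differed between the lines in edgeR's interaction test over 12 libraries (BH-adjusted p, HT-1080 minus HEK-293T on the log2 scale), in which 19% of all genes tested passed. For RBFOX3 the difference was 2.86 (edgeR adjusted p = 0.000826), with a rise in both lines that was larger in HT-1080. For SRRM3 it was -1.99 (edgeR adjusted p = 0.00862), lower in every HT-1080 siHNRNPH1 library and higher in every HEK-293T one. CELF2 differed by -1.58 (edgeR adjusted p = 0.0224), ELAVL1 by -0.51 (edgeR adjusted p = 0.0091) and PTBP1 by -0.34 (edgeR adjusted p = 0.0495). Without HEK-293T siHNRNPH1 replicate 1 the differences were 3.14 for RBFOX3, -1.46 for SRRM3, -1.89 for CELF2, -0.47 for ELAVL1 and -0.35 for PTBP1, and the largest edgeR adjusted p was 0.000211, for PTBP1.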

How the results depend on the processing

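Counts of shifted microexons depended on the rule of size. The 4 in HEK-293T became 28 with 5 spanning models, 1 with 20, 29 at 10 points, 2 at 30 points and 1 by intervals that do not overlap. The 5 in HT-1080 became 25, 2, 34, 1 and 0 under the same rules, 2 without models that have an overlapping exon, 3 with models that hold a flanking donor and acceptor, and 1 at 3 to 27 nt. The 7 between the siNegative pools became 22, 0, 23, 4 and 0, then 2, 2 and 3. Members numbered 645 at 3 to 27 nt. Summed inclusion was 56.8, 58.0, 62.7 and 64.6% without overlapping exons and 47.4, 48.5, 55.0 and 58.2% with flanking sites. Of 131 values of named exons under these 2 alternatives, 13 went to 0 and 3 changed sign (NAP1L4 23 nt, LRPPRC and CSE1L, each between the siNegative pools and under 5 points). Of the differences of 20 points or more that had a value under an alternative, 0 changed sign. Several had none, as fewer than 10 models remained in a pool. Among these were PVR in HEK-293T, SAFB2 in HT-1080 and the 30-nt GAS5 exons between the siNegative pools. The UBXN4 difference in HT-1080 went from 23.5 to 0 points. Without COL13A1, an alternative chosen after seeing the data, summed inclusion in HT-1080 was 37.6 and 38.7%.

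In HEK-293T, counts of called genes depended on siHNRNPH1 replicate 1. The 3 regulators became 5 with DESeq2, 7 with all 12 libraries in one fit, and 0 to 15 on leaving out 1 library (15 without that replicate). The 42 hosts became 22 without a filter, 90 with DESeq2, 170 in one fit and 0 to 588 on leaving out 1 library (588 without that replicate, 1, 0 and 0 without siNegative replicates 1 to 3). HNRNPH1 ranged from -1.89 to -1.58, and its call was lost in 4 of these 6 fits, without any 1 siNegative library or siHNRNPH1 replicate 2 (edgeR adjusted p = 0.0514 to 0.0760). In one fit, HT-1080 gave 8 regulators and 317 hosts. ELAVL1 in HEK-293T turned to 0.019 in one fit, PLAU in HEK-293T to 0.0014 and 0.0093 without siNegative replicate 2 or siHNRNPH1 replicate 3 (range -0.20 to 0.0093 over fits that leave out 1 library), and SENP6 in HT-1080 to -0.015 without siNegative replicate 2 (range -0.015 to 0.062), none of them called. The cause was not tested. Of 384 gene values under alternatives, 331 stayed on their side of the threshold, 35 lost a call and 14 gained one.

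The labels give same-numbered replicates nothing in common but the number. The correlations of their deviations were 0.0871, 0.0981 and 0.0232 in HEK-293T and -0.00188, 0.0851 and 0.0316 in HT-1080. Such values cannot show whether these replicates were handled together. With the replicate block, HEK-293T gave 0 regulators and 0 hosts, and HNRNPH1 was at -1.79 (edgeR adjusted p = 0.0665). The block left 14 regulators and 583 hosts in HT-1080. Model counts of 10 to 30 per exon and pool leave wide intervals on the shares.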
